A study of Rattus norvegicus with 12 samples.

Results

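Chondrocytes from injured, saline-injected knees were compared with chondrocytes from uninvolved knees. The comparison used 6 of the 12 RNA-seq libraries of the series, the 3 labelled Saline and the 3 labelled Uninvolved knee, chosen by their labels. The series came from a rat model of post-traumatic osteoarthritis, in which a single compressive load on the tibia ruptures the anterior cruciate ligament. The other 6 libraries came from injured knees given empty liposomes (Lipo) or liposomes carrying CGS21680, an agonist of an adenosine receptor (Lipo-CGS), and they entered the filter on low values and the estimate of the spread; their levels stand beside a few results.

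All rats were male Sprague Dawley animals; their age is not given in the sources used here. Saline knees received 100 µl of saline into the joint every 10 days for 8 weeks, starting 4 weeks after the rupture. Uninvolved knees were neither injured nor, as far as the labels say, injected, and the labels do not state from which rats they came. No injured knee without an injection was sequenced, so injury and repeated saline injection cannot be told apart. Each library pooled the cartilage of 3 rats. Cells were freed with collagenase and, per the study's methods, cultured before RNA was extracted from trypsinized cells. The libraries therefore hold chondrocytes after a culture step and not the tissue itself.

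Articular chondrocytes are the only resident cells of joint cartilage, and they build and turn over a matrix of type II collagen, aggrecan and linked glycoproteins. After a ligament rupture the joint is unstable, and cartilage is known to lose aggrecan and collagen through metalloproteinases of the MMP and ADAMTS families. Chondrocytes taken into culture can drift toward a fibroblast-like state with more type I collagen and less type II collagen.

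The unit was FPKM, fragments per kilobase of gene on a scale common to the libraries, which sets values per gene length. Of 28546 genes in the table, 9582 were at 0 in all 12 libraries, and 11373 reached 1 FPKM in at least 3 libraries and were tested. Between 10858 and 11002 genes reached 1 FPKM in each of the 6 libraries, whose relative depth ran from 0.857 to 1.09; absolute read depth is unknown. The labelled cell type was borne out: 9 chondrocyte markers were tested, and Col2a1, type II collagen, ranged from 4132 to 7887 FPKM. The hemoglobin genes Hba-a2 and Hbb and the T cell genes Cd3e and Cd3g were listed at 0 in all 6 libraries. Since 12 to 17 of 120 ribosomal protein genes, which every cell uses, were also listed at 0 in each library, a 0 here does not show that a gene was not expressed. In bulk RNA, fewer cells of a type and less RNA per cell cannot be told apart.

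A pair of libraries was set apart, each for a different reason. Saline 3 had 117 genes more than 2-fold above each of the other 5 libraries (1.03% of the genes tested) and 7 genes more than 2-fold below them (0.0615%). No other library had more than 6 genes that far above or more than 10 that far below. Uninvolved 3 differed in another way, since its profile lay nearer to Saline 1 and Saline 2 than to its own group. The distance used was the root mean square difference over all tested genes of log2(FPKM + 0.5). Uninvolved 3 was 0.28 from Saline 1 and 0.29 from Saline 2, but 0.42 from Uninvolved 1 and 0.37 from Uninvolved 2. Uninvolved 1 also lay outside the others often, above all other 5 libraries for 3019 genes and below them for 2243. Those counts were 2340 and 2553 for Uninvolved 3, and 2262 and 2547 for Saline 3. Results are therefore given for all 6 libraries and, where they move, without Saline 3 and without Uninvolved 3.

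As whole profiles, libraries of different groups were on average about as far apart as libraries of 1 group. Mean distance was 0.355 within the uninvolved group, 0.361 within the Saline group and 0.359 between the groups. A pseudo-F ratio of between-group to within-group squared distance was 1.03. It was 0.841 without Saline 3 and 1.70 without Uninvolved 3. These ratios are a description, since 0.1 is the smallest p that permuting 6 libraries allows.

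**Figure D1:**
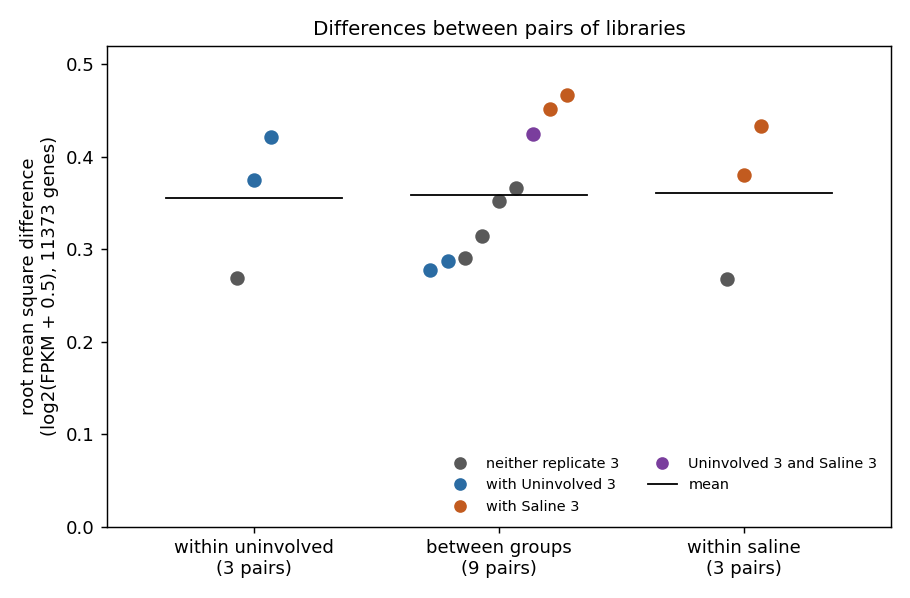
Root mean square difference in log2(FPKM + 0.5) over 11373 genes for each of the 15 pairs among the 6 libraries (points), sorted by whether both libraries came from 1 group, with the mean of each class as a line. The class means are 0.355, 0.359 and 0.361, and all 5 pairs that include Saline 3 lie between 0.38 and 0.47.

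Gene by gene, no gene passed the test. With limma across all 12 libraries, 0 of 11373 genes reached an adjusted p under 0.05 with a change over 1.5-fold (0% in either direction). The smallest adjusted p was 0.169. At an unadjusted p under 0.05 there were 566 genes (4.98%), of which 262 were higher (2.3%) and 304 lower (2.67%) in Saline, and 103 of the 566 differed by more than 1.5-fold. Without Saline 3, limma again called 0 genes, with 295 (2.59%) at an unadjusted p under 0.05. A total of 193 genes were under that unadjusted level both with and without Saline 3, all 193 in the same direction. The groups did not overlap for 964 genes (8.48%), 481 higher (4.23%) and 483 lower (4.25%) in Saline.

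For most genes the difference was bounded to within 1.5-fold, given a spread estimated over all 12 libraries. The 95% confidence interval of the difference lay within 1.5-fold in both directions for 8636 genes (75.9%) and within 2-fold for 10786 (94.8%). Median absolute difference was 0.11 on the log2 scale. Without Saline 3, intervals within 1.5-fold were found for 8254 genes (72.6%), without Uninvolved 3 for 7421 (65.3%) and without both for 7298 (64.2%). The most abundant transcripts were shared as well: the 20 genes with the highest mean FPKM were the same in both groups, as were 91 of the top 100 and 955 of the top 1000. Among them were Col2a1, the calcification inhibitor Mgp, fibronectin (Fn1) and Sparc.

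Cartilage matrix genes did not separate the groups. Col2a1 measured 6744, 7348 and 7786 FPKM in the uninvolved libraries and 6259, 7887 and 4132 FPKM in the Saline libraries. The highest and the lowest value of the 6 were both Saline libraries. The difference in Col2a1 was -0.31 on the log2 scale (95% interval -0.94 to 0.33, limma adjusted p = 0.828) and -0.05 without Saline 3. Acan, the core protein of aggrecan, measured 922, 888 and 1154 FPKM in the uninvolved libraries against 954, 1149 and 681 in Saline. For Acan only Saline 3 fell outside the uninvolved range, and the log2 difference of -0.11 became 0.09 without it. Sox9, the transcription factor that drives both genes, was at 55.0, 46.8 and 46.1 FPKM in uninvolved and 49.5, 54.7 and 31.3 FPKM in Saline cells. Comp, a matrix protein that binds collagen, and Prg4, the joint lubricant, overlapped between groups too, with log2 differences of 0.12 and 0.14.

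Over the whole cartilage matrix list, 32 of 34 genes were tested and 3 were lower at an unadjusted p under 0.05 (9.38%, against 2.67% of all genes), while none was higher. These were Clec3a, a cartilage lectin, Matn3, a matrilin that links collagen fibrils, and Col9a1, a chain of type IX collagen that coats them. Clec3a measured 240, 219 and 292 FPKM in uninvolved and 148, 228 and 99.5 FPKM in Saline cells. Saline 1 and Saline 3 were below all uninvolved values and Saline 2 was inside their range. Without Saline 3, 0 of the 32 genes were under that level, where 1.42% of all genes were lower, and the list median moved from -0.11 to 0.03 on the log2 scale. The median over all tested genes was -0.003 with Saline 3 and 0.0003 without it. Only 5 of the 32 cartilage genes (15.6%) had an interval within 1.5-fold, against 75.9% of all genes, so these genes were measured less tightly than most.

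Hypertrophy is the late state in which growth plate cells mineralize their matrix. Of 13 tested hypertrophy and mineralization genes, 10 had negative and 3 positive differences. At an unadjusted p under 0.05, 2 were lower, against 2.67% of all genes. Mmp13, the 1 that was higher (against 2.3%), had a log2 difference of 1.07 and is described with the proteases below. Without Saline 3, 1 was lower, against 1.42%, and 0 were higher, against 1.17%. Col10a1 and Ibsp had lower means in Saline but overlapped between groups. Col10a1, the type X collagen that marks this state, measured 67.7, 84.6 and 141 FPKM in uninvolved cells and 45.7, 84.6 and 47.0 FPKM in Saline cells. The groups overlapped through Saline 2, and the log2 difference of -0.71 had a 95% interval from -1.45 to 0.03. Ibsp, a bone matrix sialoprotein, was at 122, 90.7 and 123 FPKM in uninvolved and 45.8, 103 and 45.8 FPKM in Saline libraries. Saline 2 again lay among the uninvolved values (log2 difference -0.88, SE 0.35, limma adjusted p = 0.809).

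Among the genes named by rule, the 10 with the smallest p in each direction, 10 were lower in Saline. Ropn1l, a ropporin-like protein known from sperm tails, had the smallest p of all. It measured 2.38, 2.26 and 2.14 FPKM in uninvolved and 1.15, 1.12 and 1.06 FPKM in Saline cells. The groups did not overlap, and each was narrow. Its log2 difference was -0.78 (SE 0.11, limma adjusted p = 0.169), or -0.75 without Saline 3. In the Lipo and Lipo-CGS libraries, also from injured knees, Ropn1l ranged from 2.01 to 2.46 FPKM, near the uninvolved level. Other genes named by this rule differed in that respect, as described with the last of them.

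Igf2, insulin-like growth factor II, a fetal growth factor also made by chondrocytes, was at 2.45, 3.97 and 3.20 FPKM in uninvolved and 1.16, 1.09 and 0.67 FPKM in Saline cells. Every Saline value was below every uninvolved one, with a log2 difference of -1.33 (SE 0.24, limma adjusted p = 0.343) that was -1.17 without Saline 3. Foxa2, a forkhead transcription factor known in mouse from endoderm and from hypertrophic chondrocytes, measured 6.84, 5.48 and 5.64 FPKM against 2.86, 3.75 and 2.41 FPKM. Its groups did not overlap either (log2 difference -0.90, SE 0.15, limma adjusted p = 0.323). R3hdml, a secreted protein, went from 1.47, 1.21 and 1.68 FPKM to 0.37, 0.21 and 0.45 FPKM, levels too low for a precise ratio. The remaining lower genes were Sqle of cholesterol synthesis, the keratin Krt8, the guanine nucleotide exchange factor Arhgef19, the glycosyltransferase-like Glt8d1, the small nucleolar RNA SNORD48 and the unnamed gene AABR07070270.1. Their log2 differences ran from -0.37 for Glt8d1 to -1.68 for SNORD48. Small nucleolar RNA genes commonly lie inside other genes, whose reads cannot be told apart from theirs here.

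Genes higher in Saline by the same rule included Pdgfrb, Pdgfc and Acta2. Pdgfrb, a receptor for platelet-derived growth factor, measured 37.0, 35.9 and 35.99 FPKM in uninvolved and 49.8, 47.0 and 43.6 FPKM in Saline cells. The groups were clear of each other, at a log2 difference of 0.36 (SE 0.09, limma adjusted p = 0.809) and 0.41 without Saline 3. Pdgfc, a ligand of the family, was at 2.79, 2.71 and 4.01 FPKM against 4.18, 5.45 and 6.21 FPKM. Uninvolved 3 came close to Saline 1 (log2 difference 0.66, SE 0.16, limma adjusted p = 0.809). Pdgfra, the other receptor, overlapped between groups, at 29.7, 27.1 and 33.0 FPKM against 30.4, 30.01 and 34.7 FPKM.

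Acta2, the actin of smooth muscle and myofibroblasts, measured 25.9, 24.2 and 25.4 FPKM in uninvolved cells and 67.8, 29.3 and 80.5 FPKM in Saline cells. Saline 2 sat just above the uninvolved libraries while the other Saline libraries were far above (log2 difference 1.10, SE 0.30, limma adjusted p = 0.809). With Saline 2 left out, Acta2 was the 1 gene called, at a log2 difference of 1.54 and a limma adjusted p of 0.0309; with every library kept it did not pass. Cdh11, a cadherin of joint lining fibroblasts, was at 1.69, 1.64 and 2.48 FPKM in uninvolved and 3.12, 3.04 and 4.52 FPKM in Saline libraries, again without overlap. Mapkapk3, a kinase downstream of p38, and Dbn1, an actin-binding protein, had log2 differences of 0.56 and 0.49. SNORD15 and the unnamed AABR07030529.1, AABR07030603.1 and AC096239.3 completed the list. Lipo and Lipo-CGS means of Glt8d1, SNORD48, SNORD15, AABR07030603.1, Ropn1l and Sqle were nearer to the uninvolved than to the Saline mean. For the other genes named by rule, both means lay nearer to the Saline mean or beyond it. Acta2 means were 25.2 FPKM in uninvolved, 59.2 in Saline, 197.7 in Lipo and 109.5 in Lipo-CGS libraries. Krt8 means were 36.4, 23.3, 19.95 and 19.4 FPKM in the same order. These levels were not tested.

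**Figure D2:**
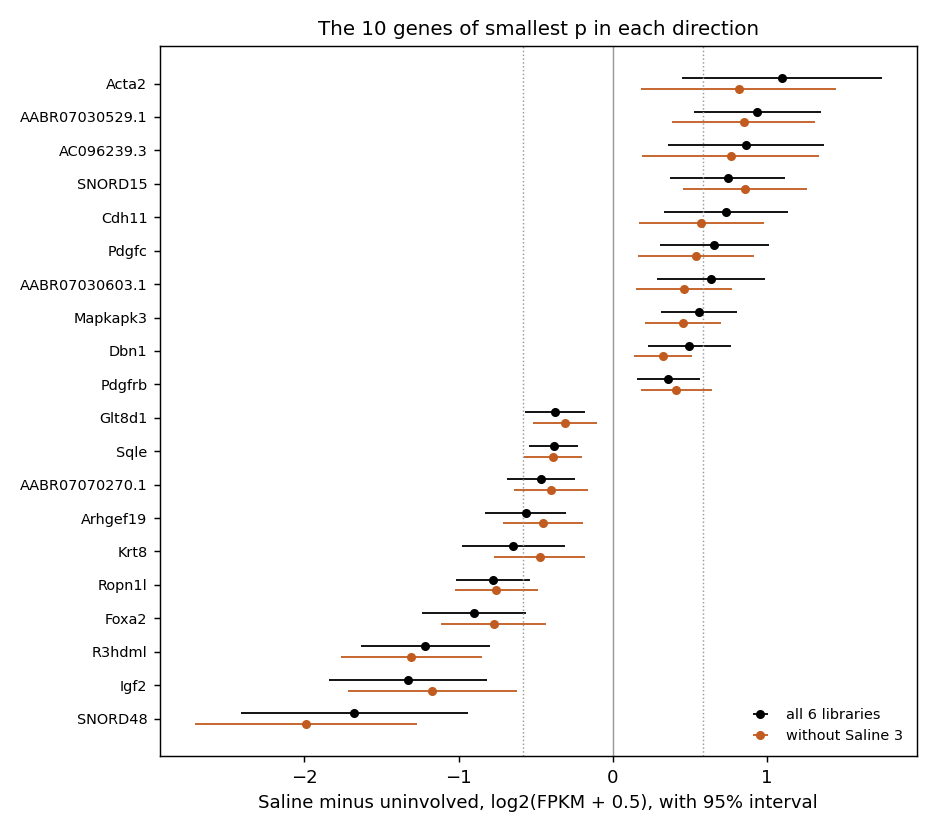
Difference between Saline and uninvolved on the log2(FPKM + 0.5) scale with its 95% interval, for the 10 genes of smallest p in each direction, with all libraries (black) and without Saline 3 (orange); dotted lines mark 1.5-fold. The genes were chosen for these differences, so intervals that miss 0 are a description; the differences run from -1.68 for SNORD48 to 1.10 for Acta2.

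Cholesterol synthesis had the largest share of members under the unadjusted level among the lists examined when all libraries were kept, though not without Uninvolved 3. Of its 21 tested genes, 11 were lower in Saline at an unadjusted p under 0.05, against 2.67% of all genes, and 0 were higher. The groups did not overlap for those 11 genes, as they did not, in that direction, for 4.25% of all genes. The list median was -0.22 on the log2 scale, against -0.003 for all genes. None of the 21 passed the adjusted test, and the differences were small, from -0.40 for Idi1 to 0.03 for Lss. In cells, the pathway makes cholesterol from acetyl-CoA, and its enzymes are known to be driven together by the transcription factor SREBP2, encoded by Srebf2, when sterols run low.

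Among the early enzymes, Hmgcs1, which makes HMG-CoA, measured 47.3, 49.0 and 55.3 FPKM in uninvolved and 39.2, 41.9 and 44.7 FPKM in Saline cells, with no overlap (log2 difference -0.26, SE 0.09, limma adjusted p = 0.809). Idi1 and Fdps, which build isoprenoid chains, differed by -0.40 and -0.27, and Fdps was almost constant within Saline at 90.6, 90.9 and 90.2 FPKM against 112, 112 and 104 FPKM in uninvolved cells.

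In the sterol branch, Fdft1, which commits isoprenoids to squalene, measured 63.8, 57.6 and 53.0 FPKM in uninvolved and 46.1, 48.9 and 42.5 FPKM in Saline libraries. Sqle, squalene epoxidase, had 39.7, 35.3 and 38.4 FPKM against 28.4, 29.0 and 29.1 FPKM. The Saline values of Sqle lay within 1 FPKM of each other and well below all uninvolved values. Its log2 difference was -0.38 (SE 0.07, 95% interval -0.54 to -0.22, limma adjusted p = 0.516), and -0.39 without Saline 3. In the Lipo and Lipo-CGS libraries Sqle ranged from 37.7 to 43.0 FPKM. The later enzymes Cyp51, Msmo1, Nsdhl, Sc5d and Dhcr7 were also among the 11, at -0.34, -0.26, -0.29, -0.28 and -0.32.

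Members of the list that overlapped between groups included the regulators. Srebf2 measured 25.1, 26.2 and 32.5 FPKM in uninvolved and 25.2, 28.6 and 25.2 FPKM in Saline cells (log2 difference -0.08), and Insig1, which holds SREBP2 back, differed by -0.20. Lss, lanosterol synthase, was the member with a positive difference. The count was repeated only without the replicate 3 libraries, and the other libraries were not left out for it. Without Saline 3, 9 of 21 were lower at an unadjusted p under 0.05, against 1.42% of all genes, and the list median was then -0.27. Without Uninvolved 3 the count was 9, against 12.1% of all genes, and without both replicate 3 libraries 10, against 10.3%.

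**Figure D3:**
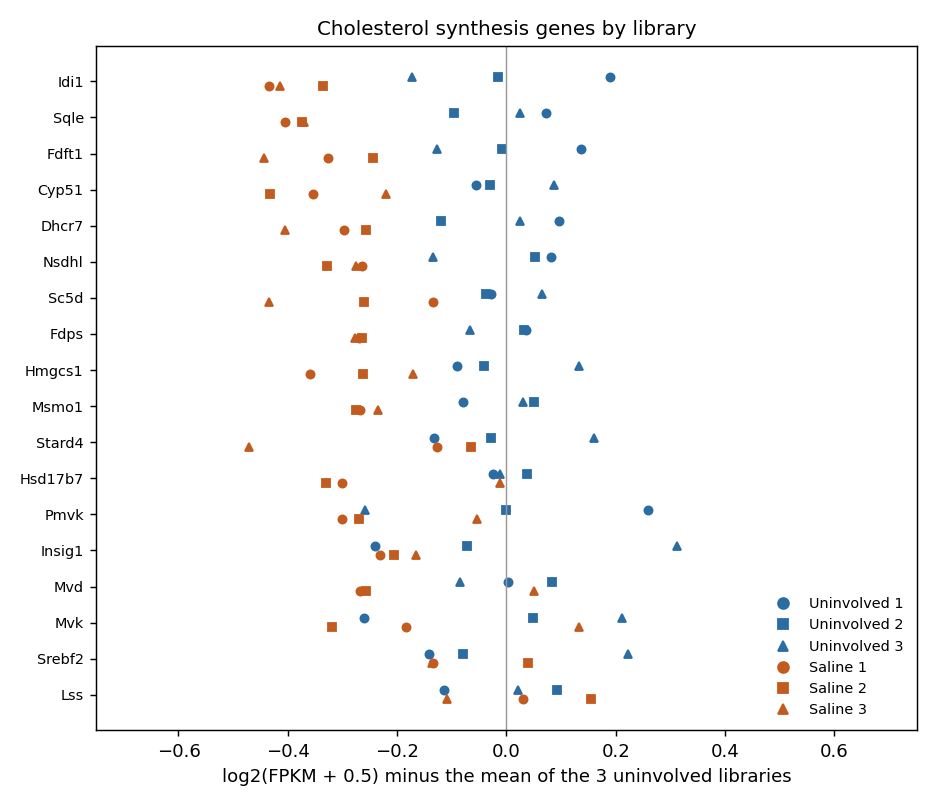
Level of 18 of the 21 cholesterol synthesis genes in the 6 libraries, as log2(FPKM + 0.5) minus the mean of the 3 uninvolved libraries, sorted by the group difference. Saline libraries (orange) lie left of all uninvolved libraries (blue) for 10 of these genes, and the 2 groups mix for the other 8.

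Promoters of these genes are shown because most members differed in the same direction, and the box CCAAT, bound by the factor NF-Y, is known to work beside SREBP2 sites in this pathway. RefSeq promoters, 250 bases before to 50 after the start site on build GRCr8, were held for 14 of the 22 listed genes. The box, searched as CCAAT on both strands, was in 12 of 14 (85.7%), against 37.5% of all 33469 promoters in the table and 38.5% of those of tested genes. A form of the sterol element, TCACNCCAC on both strands, was in 0 of 14 and in 1.12% of all promoters. A match is a run of letters and not a site shown to be bound. Each sequence below runs 5′ to 3′ on the gene's strand with the box in capitals; Hmgcs1 is at chr2:53382054-53382353 (plus strand), Idi1 at chr17:66547475-66547774 (minus) and Fdps at chr2:176804767-176805066 (minus).
Hmgcs1: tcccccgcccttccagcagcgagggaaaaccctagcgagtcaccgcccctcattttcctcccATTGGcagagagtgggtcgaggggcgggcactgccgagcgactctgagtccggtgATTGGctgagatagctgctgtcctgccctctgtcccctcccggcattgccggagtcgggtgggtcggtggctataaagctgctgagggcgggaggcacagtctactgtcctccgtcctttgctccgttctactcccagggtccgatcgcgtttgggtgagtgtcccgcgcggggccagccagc
Idi1: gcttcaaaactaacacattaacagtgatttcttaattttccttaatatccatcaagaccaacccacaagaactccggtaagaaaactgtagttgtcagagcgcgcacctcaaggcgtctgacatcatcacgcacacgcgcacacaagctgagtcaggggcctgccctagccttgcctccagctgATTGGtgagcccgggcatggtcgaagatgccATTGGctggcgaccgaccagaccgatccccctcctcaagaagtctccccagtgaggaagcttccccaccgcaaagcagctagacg
Fdps: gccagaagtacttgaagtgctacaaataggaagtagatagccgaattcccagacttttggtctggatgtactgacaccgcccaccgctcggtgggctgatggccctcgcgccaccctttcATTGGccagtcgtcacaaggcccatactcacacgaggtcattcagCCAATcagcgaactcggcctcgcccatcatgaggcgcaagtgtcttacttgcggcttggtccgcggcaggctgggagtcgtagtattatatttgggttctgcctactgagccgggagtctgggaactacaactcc

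Each of the 3 promoters held the box 2 times, and the genes behind them had log2 differences of -0.26, -0.40 and -0.27. The promoters of Cyp51 and Dhcr7 held no box in this window, with differences of -0.34 and -0.32. Among members whose groups overlapped, Mvk held the box 5 times, Mvd 2 times and Lss 1 time, with differences of -0.12, -0.16 and 0.03. A relation between the box and the differences was not tested.

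Chaperones of the endoplasmic reticulum, where secreted matrix proteins fold, had smaller differences. Of 23 tested genes of the unfolded protein response, 5 were lower in Saline at an unadjusted p under 0.05, against 2.67% of all genes, and 0 were higher, with a list median of -0.20. Calr, a calcium-binding chaperone, measured 2031, 1953 and 1576 FPKM in uninvolved and 1546, 1409 and 1527 FPKM in Saline cells. Uninvolved 3 was close to the Saline values. Dnajc3, Pdia4, Creld2 and Manf were the others, at log2 differences of -0.28, -0.20, -0.31 and -0.30. Without Saline 3 the count was 3 of 23, against 1.42% of all genes. It was 10 without Uninvolved 3, against 12.1%, and 7 without both, against 10.3%.

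Immediate early genes, which encode transcription factors switched on within minutes of a stimulus, had 7 of 35 tested members higher in Saline at an unadjusted p under 0.05, against 2.3% of all genes. Klf4 measured 43.2, 46.1 and 40.0 FPKM in uninvolved and 52.98, 53.4 and 51.5 FPKM in Saline cells, with no overlap (log2 difference 0.29, SE 0.08, limma adjusted p = 0.809). Fos, a subunit of AP-1, was at 68.5, 86.6 and 69.9 FPKM against 99.3, 92.5 and 94.1 FPKM, also without overlap. Egr1, a zinc finger member of the list, did not follow: it had 125, 147 and 130 FPKM in uninvolved and 132, 135 and 138 FPKM in Saline libraries, a log2 difference of 0.01. The list median was 0.05. Without Saline 3, 3 of the 35 were higher at that level, against 1.17% of all genes. Without Uninvolved 3 there were 4 higher and 4 lower, where all genes gave 10.2% and 12.1%.

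For matrix proteases the count depended on Saline 3. Of 24 tested MMP and ADAMTS genes, 6 were higher at an unadjusted p under 0.05, against 2.3% of all genes, and 0 were lower, but 2 were higher without Saline 3, against 1.17% of all genes. Mmp10, a stromelysin, measured 32.8, 34.4 and 42.2 FPKM in uninvolved and 47.1, 54.3 and 55.5 FPKM in Saline cells. Here all Saline libraries were above all uninvolved ones (log2 difference 0.52, SE 0.18, limma adjusted p = 0.809). Mmp13, the collagenase that cuts type II collagen, was at 1.66, 1.16 and 1.43 FPKM against 1.15, 3.71 and 8.70 FPKM, so that Saline 1 was the lowest and Saline 3 the highest of the 6. Mmp3, the most abundant protease of the list named here, had 541, 503 and 466 FPKM in uninvolved and 599, 704 and 633 FPKM in Saline libraries (log2 difference 0.36, SE 0.16, limma adjusted p = 0.809). Adamts4 and Adamts5, the aggrecanases, differed by 0.05 and 0.17. In the fixed set of 31 cartilage, protease and signaling genes as a whole, 3 were higher at an unadjusted p under 0.05 (Col3a1, Fos and Mmp13), against 2.3% of all genes. None was lower, against 2.67%. Without Saline 3, Col3a1 stayed under that level (limma unadjusted p = 0.024), while Fos (0.052) and Mmp13 (0.18) did not.

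Fibrous matrix and contractile genes had 5 of 28 tested members higher at an unadjusted p under 0.05, against 2.3% of all genes, and 0 lower. There were 4 higher without Saline 3, against 1.17%, and 9 without Uninvolved 3, against 10.2%. Col3a1, type III collagen, measured 228, 242 and 222 FPKM in uninvolved and 343, 257 and 463 FPKM in Saline cells, without overlap (log2 difference 0.58, SE 0.17, limma adjusted p = 0.809). Lox, which crosslinks collagen, was at 361, 314 and 367 FPKM against 427, 421 and 427 FPKM. Col1a1, type I collagen, overlapped widely: 94.3, 20.3 and 130 FPKM in uninvolved and 107, 35.8 and 771 FPKM in Saline libraries. Its log2 difference of 1.19 became -0.02 without Saline 3.

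Wnt pathway genes had 5 of 22 tested members lower at an unadjusted p under 0.05 (Wnt11, Fzd9, Nkd1, Lef1 and Ror1), against 2.67% of all genes. There were 0 without Saline 3, against 1.42%, and 2 without Uninvolved 3, against 12.1%. In the inflammatory lists, 1 of 15 tested cytokines and chemokines and 2 of 28 NF-kB targets were higher at that level, against 2.3% of all genes, and 0 of either list were lower, against 2.67%. All 12 tested acute phase and complement genes had positive differences, with a median of 0.58 (0.34 without Saline 3), but 0 were under that level. Their library medians overlapped, from -0.29 to 0.39 in uninvolved and from -0.13 to 0.73 in Saline libraries. The cytokine was Lif, at 2.53, 3.92 and 3.27 FPKM in uninvolved and 5.91, 4.01 and 5.77 FPKM in Saline cells. Ptgs2, the inducible prostaglandin synthase, had a log2 difference of 0.30 with overlapping groups. Il6 stayed below the level tested, at 0.13 to 0.31 FPKM in uninvolved and 0.33 to 1.14 FPKM in Saline libraries.

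**Figure D4:**
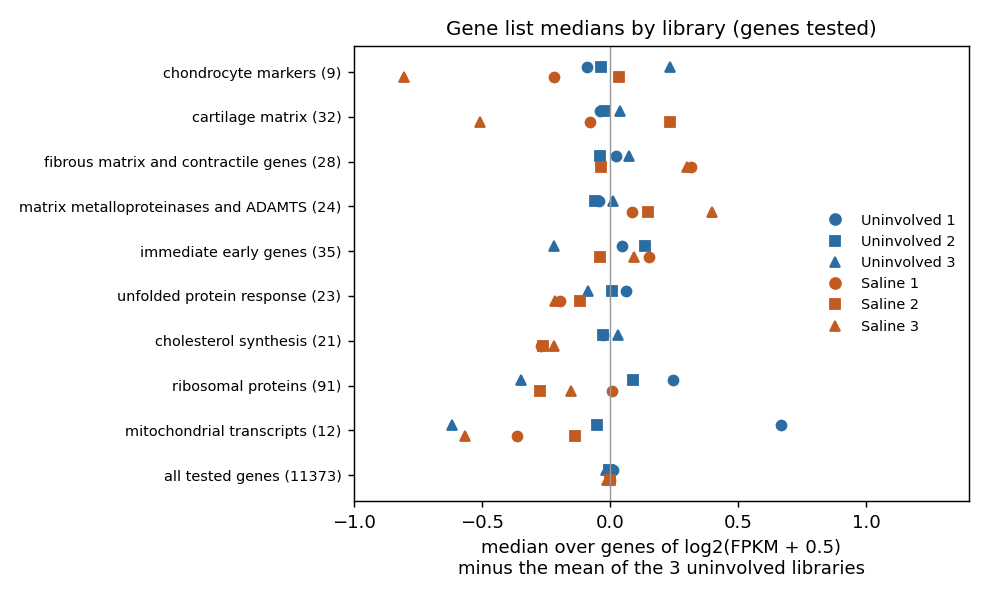
Median over the tested genes of each list (number in brackets) of log2(FPKM + 0.5) minus the uninvolved mean, for each of the 6 libraries. Saline and uninvolved libraries separate for cholesterol synthesis, from -0.27 to -0.22 against -0.03 to 0.03. They also separate for the unfolded protein response, from -0.21 to -0.12 against -0.09 to 0.06. The same holds for MMP and ADAMTS genes, from 0.09 to 0.40 in Saline against -0.06 to 0.01. Saline 3 is lowest for chondrocyte markers at -0.81, and Uninvolved 3 is lowest for ribosomal proteins at -0.35.

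Saline 3, described here without a test because its genes were chosen by their values in it, stood more than 2-fold above every other library in the 117 genes counted above. These included 5 of 24 tested MMP and ADAMTS genes, 4 of 28 fibrous matrix and contractile genes and 1 of 32 cartilage matrix genes, against 1.03% of all genes. Other lists had members too, such as 3 of 25 IGF, FGF, PDGF and VEGF genes, 2 of 22 Wnt genes and 2 of 15 cytokines and chemokines. Among 39 cell cycle and 35 immediate early genes there were 0. Of the 32 tested cartilage matrix genes, 25 were lowest in Saline 3 (78.1%), against 22.4% of all genes. Lum, a collagen-binding proteoglycan of fibrous tissue, measured 136 FPKM in Saline 3 and 3.63 to 8.41 FPKM in the other 5 libraries. Aqp1, a water channel, was at 220 FPKM against 3.98 to 14.7 FPKM, and Ccl2, a chemokine that draws monocytes, at 341 FPKM against 9.57 to 38.8 FPKM. These were gaps of 15.4-fold, 14.5-fold and 8.68-fold to the next highest library. Tnn (a tenascin), Angpt4, Kcnn4 (a potassium channel), Igfbp6 (which binds Igf2) and Col4a1 (basement membrane collagen) made up the 8 genes farthest above, with gaps from 7.66-fold to 11.7-fold. Mmp2, a gelatinase, reached 116 FPKM against 7.47 to 15.0 FPKM.

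For these genes the group difference rested on Saline 3. For Lum the log2 difference was 1.76 with Saline 3 and 0.31 without it, and for Kcnn4 it was 1.43 and 0.02. Igfbp6 and Col4a1 changed sign, from 0.98 to -0.31 and from 1.18 to -0.07. Among the 117 genes high in Saline 3, the mean of the Lipo libraries was also above the other 5 libraries for 78 and reached the level of Saline 3 for 14. The share of all tested genes with a Lipo mean above those 5 libraries was not counted. These counts therefore do not show a likeness of Saline 3 to Lipo. Tnn, for one, ranged from 5.70 to 15.8 FPKM in Lipo, near the 14.1 FPKM of Saline 3, whereas Lum was at 5.47 to 11.95 FPKM there. Genes farthest below in Saline 3 were mostly near the level tested; Camk4, a calmodulin-dependent kinase, had 5.85 FPKM against 12.3 to 18.3 FPKM, and Dlk1, a Notch family ligand, 1.48 FPKM against 4.37 to 8.63 FPKM.

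**Figure D5:**
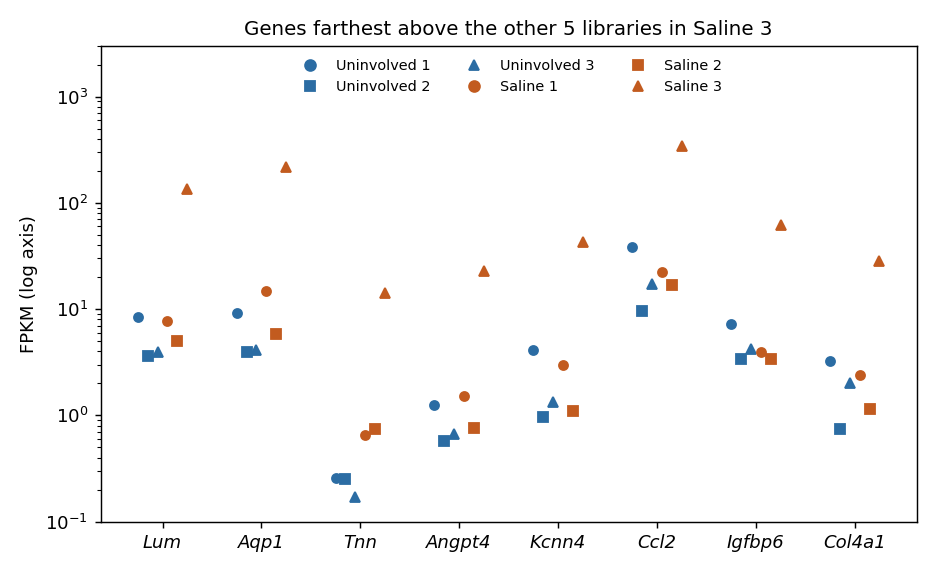
FPKM on a log axis in each of the 6 libraries for the 8 genes farthest above the other 5 libraries in Saline 3. For every gene the Saline 3 point (orange triangle) stands alone, as for Lum at 136 FPKM against at most 8.41 FPKM elsewhere.

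Markers of cells other than chondrocytes moved with Saline 3 in part. Of 24 leukocyte and macrophage markers in the table, 10 were at 0 in Saline 3 and 12 to 15 in the other 5 libraries, and their sum was 61.0 FPKM against 46.0 to 72.8 FPKM, most of it Cd14 at 34.4 to 56.9 FPKM. The macrophage genes Lyz2 and Tyrobp were at 10.3 and 2.90 FPKM in Saline 3 and at most 0.58 and 0.30 FPKM elsewhere. The defining genes Csf1r, Adgre1 and Ptprc were at 0.45, 0.19 and 0.09 FPKM there, and Cd163 was listed at 0 in all 6. Of the 13 tested among 18 fibroblast and synovial markers, 2 were more than 2-fold above in Saline 3, against 1.03% of all genes. These were Thy1 at 152 FPKM against 52.9 to 64.9 FPKM and Col14a1 at 8.18 FPKM against 0.74 to 1.82 FPKM. Mfap5, a microfibril gene of the list that was not tested, was at 6.76 FPKM against 0.15 to 1.13 FPKM, and Cd248 was listed at 0 in all 6. The sum over the 18 was 1729 FPKM in Saline 3, 1528 and 1739 FPKM in Saline 1 and Saline 2, and 1249 to 1844 FPKM in uninvolved libraries. Of 12 adipocyte markers, only 2 were tested, and both were highest in Saline 3, as were 19.9% of all genes. The sum over the 12 was 21.6 FPKM there against 7.49 to 14.5 FPKM. Pparg, the adipocyte transcription factor, was at 2.65 FPKM against at most 0.31 FPKM, and Adipoq, which encodes adiponectin, at 0.04 FPKM in Saline 3. All 9 chondrocyte markers were lowest in Saline 3, as were 22.4% of all genes, with a sum of 5469 FPKM against 8141 to 10104 FPKM. The part of these markers in the results was not tested.

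Of 4 tested leukocyte and macrophage markers, 1 was lower in Saline at an unadjusted p under 0.05 (25%, against 2.67% of all genes). None was higher, against 2.3%, and Cd14, Cd68 and Fcer1g overlapped between groups. The lower marker was Cd79a, a B cell receptor chain, at 4.13, 3.25 and 2.41 FPKM in uninvolved and 1.94, 1.98 and 1.35 FPKM in Saline cells. Its groups did not overlap, but it did not pass the adjusted test (log2 difference -0.72, limma adjusted p = 0.809). The B cell genes Cd79b and Ms4a1 were listed at 0 in all 6 libraries, which does not show their absence.

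Uninvolved 3 moved the counts more than Saline 3 did. Without it, limma called 46 genes, 33 higher (0.29%) and 13 lower (0.114%) in Saline, and 2536 genes (22.3%) had an unadjusted p under 0.05. Without both replicate 3 libraries 0 genes were called, with 2226 (19.6%) under that level, 9.22% higher and 10.3% lower. Without Uninvolved 3 alone the smallest limma adjusted p was 0.0491, so all 46 calls lay just under the threshold of 0.05. Uninvolved 3 was left out because it lay near Saline 1 and Saline 2, so the larger count without it is a description. In 43 of the 46 genes (93.5%) Uninvolved 3 was nearer to the Saline mean than to the mean of Uninvolved 1 and 2. It was so in 92.1% of the 2536 genes and in 70.5% of all genes. The 46 and the 2536 were picked for a difference between Uninvolved 1 and 2 and the Saline libraries, so these shares are a description. Il6st, the receptor chain shared by interleukin 6 family cytokines, shows the pattern, with 19.0, 17.6 and 37.7 FPKM in uninvolved and 30.7, 28.7 and 38.0 FPKM in Saline libraries. Without Uninvolved 3 its log2 difference was 0.80 (limma adjusted p = 0.0491), and with it 0.46 (limma adjusted p = 0.809). Foxa2, Ropn1l and R3hdml were exceptions, since their Uninvolved 3 values stayed with the uninvolved group.

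Among the genes called lower without Uninvolved 3 was Selenok, a selenoprotein of the endoplasmic reticulum, at 126, 104 and 61.6 FPKM in uninvolved and 68.6, 65.5 and 64.2 FPKM in Saline cells. Uninvolved 3 was the lowest of its 6 libraries. Ribosomal protein genes as a list had medians of 0.25, 0.09 and -0.35 in Uninvolved 1 to 3 and 0.01, -0.27 and -0.15 in Saline 1 to 3. Without Uninvolved 3, 40 of the 91 tested were lower at an unadjusted p under 0.05, against 12.1% of all genes, and with it 1. The 12 tested mitochondrial transcripts had medians of 0.67, -0.05 and -0.62 in the uninvolved libraries and -0.36, -0.14 and -0.57 in the Saline libraries. Ribosomal protein genes share reads with many processed copies, so their values are uncertain, and the part of these lists in the position of Uninvolved 3 was not tested.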

How the data were processed

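Chondrocyte RNA of 12 libraries was sequenced by the authors as 50-base single reads, aligned to Rnor_6.0 with STAR and counted with featureCounts per the paper's methods; the submitters' processing notes name HTSeq instead. The deposited values are FPKM, rounded by the authors to hundredths. Median-of-ratios factors computed from them were 1.006 to 1.007 in every library, so the columns were already on a common scale.

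Samples were grouped by their labels. Genes that reached 1 FPKM in 3 or more of the 12 libraries were tested with limma 3.58.1 (R 4.3.3) on log2(FPKM + 0.5), with a mean-variance trend, 4 group means and Benjamini-Hochberg adjustment; this scale understates changes of low genes. A gene was called at an adjusted p under 0.05 and over 1.5-fold. Named genes were the 10 of smallest p in each direction with a mean of at least 1 FPKM in either group, the 8 farthest above and below in Saline 3, and a fixed set of cartilage, protease and signaling genes; a further rule, genes called without Saline 3, named 0. Other list members were named after their values were seen, and some genes are counted in the lists but not reported singly here. The members and lists were chosen with earlier results of these data known. In the lists, 34 symbols were absent from the table, and 10569 of 11373 tested symbols matched the RefSeq table of GRCr8. Same-numbered libraries of the 2 groups did not deviate together (correlations -0.06, 0.03 and 0.0003), so no pairing was used. The paper's methods give fewer rats per group than 3 separate pools of 3 rats would need, so libraries of a group may share animals. Whether the 3 libraries of a group came from separate cultures beyond the pooled rats is not stated either. The p-values and intervals therefore measure the spread between these libraries, which are not known to be independent pools.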

Additional observations from a re-analysis of the deposited data

How the results depend on the processing

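The count of 0 called genes with all libraries was also found with pseudocounts of 1 and 0.1, without a filter, with filters of 5 FPKM and of 1 FPKM in the 6 libraries, after recentering, in a fit to the 6 libraries alone, with robust variance and array weights, without a fold threshold and at an adjusted p under 0.10; array weights raised the genes at an unadjusted p under 0.05 from 566 to 2275. Leaving out 1 library at a time gave 0 to 46 called genes, 46 without Uninvolved 3 and 1 (Acta2) without Saline 2. Without Saline 3, no filter gave 1 called gene, AABR07021018.1, at 0.32 and 0.40 FPKM in Saline 1 and 2 and 0 elsewhere; leaving out 1 further library gave 0 throughout. The pseudo-F ratio was 1.01 to 1.03 under other pseudocounts and a 5 FPKM filter. Intervals within 1.5-fold ranged from 7421 to 8632 genes over the libraries left out singly. They numbered 8179 in the fit to the 6 libraries alone, 7986 with a pseudocount of 0.1 and 9289 with a pseudocount of 1. With the replicate number as a block, 0 genes were called and 555 had an unadjusted p under 0.05, or 0 and 636 without Saline 3.

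Of the 82 genes followed through 10 other settings, Acan (0.059) and Egr1 (-0.036) changed sign under array weights, and no other gene did. Leaving out libraries changed the sign of 12 genes, none of them called in either direction. Leaving out 1 library at a time, the log2 difference ranged from -0.28 to 0.093 for Acan, -0.32 to 0.082 for Sox9, -0.047 to 0.25 for Comp, -0.058 to 0.40 for Prg4, -0.038 to 0.080 for Egr1, -0.023 to 2.18 for Col1a1, -0.066 to 2.00 for Col4a1, -0.31 to 1.67 for Igfbp6, 0.025 to 2.41 for Kcnn4, 0.032 to 0.79 for Thy1, -0.040 to 0.093 for Lss and -0.15 to 0.034 for Srebf2. Without both replicate 3 libraries it was 0.21 for Acan, -0.024 for Egr1, -0.38 for Igfbp6, -0.15 for Kcnn4, 0.037 for Sox9, 0.064 for Srebf2 and -0.024 for Thy1; the cause was not tested. The choices without both replicate 3 libraries, and the list counts and separation without single libraries, were added after seeing the data. With 3 libraries a group, an absent call does not show that a gene did not differ, and FPKM without counts gives no depth for single genes.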
